A study of Caenorhabditis elegans with 21 samples.

Results

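C08F11.7 (WBGene00007454) is a protein-coding gene of Caenorhabditis elegans. It is on a list, drawn up for this work, of genes targeted by the Argonaute protein ERGO-1. The gene was 1 of 75393 features in the count table. It was chosen by its measured small RNA counts, which were lower in both dpf-3 genotypes than in wild type, so the values in those genotypes are described here and not tested. Small RNAs of whole L4 larvae, raised at 15 °C on NA22 bacteria, were sequenced after a polyphosphatase had acted on their 5′ ends, which lets triphosphorylated small RNAs enter a library. The 21 libraries came from wild type (9 libraries, A to I), a dpf-3 null, worms with the DPF-3 S784A substitution, mut-2(ne3370) and mut-7(ne4255), with 3 libraries (A to C) of each mutant. Stage, temperature and food were the same in all 5 genotypes, and the title of the series concerns the processing of Argonautes by a protease. The sources used here do not say how the null was made, how many isolates of each mutant were used, or whether replicates were separate cultures. The p-values below therefore measure only the spread between these samples.

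ERGO-1 is an Argonaute that binds 26G RNAs, small RNAs that the RNA-dependent RNA polymerase RRF-3 and Dicer make on messenger and pseudogene transcripts. Targets of these primary small RNAs then become templates for 22G RNAs, secondary small RNAs with a 5′ triphosphate that other RNA-dependent RNA polymerases make and that a further set of Argonautes carries. The Mutator proteins are needed for this amplification, among them the nucleotidyltransferase MUT-2 and the exonuclease-family protein MUT-7, and DPF-3 is a protease of the dipeptidyl peptidase family. The deposited table does not separate 26G from 22G RNAs, so every value below is a count of all small RNAs assigned to a feature, whatever their length.

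The gene lies on the plus strand of chromosome IV, from 13637275 to 13638666 (ce11, the same assembly as Ensembl's WBcel235), and spans 1392 bases. Ensembl lists 2 transcripts with 4 and 3 exons, which share a coding sequence for 221 amino acids. The exons cover 1042 bases, and no annotated gene overlaps it on either strand. By small RNA counts in wild type it ranked 166 of the 75393 features. No molecular role of its protein is given in the annotation used here.

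Small RNAs of C08F11.7 were abundant in every wild-type library and scarce in every mutant library. The raw counts in wild-type libraries A to I were 228, 218, 282, 442, 433, 209, 478, 229 and 452. In the dpf-3 null they were 22, 15 and 6, and in DPF-3 S784A 14, 2 and 11. The mut-2 libraries had 3, 0 and 1 and the mut-7 libraries 3, 6 and 2. The lowest wild-type library thus held more counts than the 12 mutant libraries together, which summed to 85, while the wild-type libraries summed to 2971. The mutant libraries were shallower. At the level of wild-type libraries A to F their summed totals would nonetheless have given 499.9 counts in the null, 253 in S784A, 124 for mut-2 and 222 for mut-7, where 43, 27, 4 and 11 were seen.

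Counts in features ranged from 40693 (mut-2 A) to 583038 (wild type G), and 53.1% to 90.7% of all reads counted lay in no feature, most of all in mut-2. Wild type formed 2 groups of libraries, with G, H and I apart from the other 6, a division absent from the labels, so the main results are also given against each. Whether a batch lies behind it was not tested. The main fit gave wild type 1 mean, so its SEs and p-values include the difference between these 2 sets of libraries. This also holds where only mutants are compared. The common dispersion, a fitted spread shared by all features, was 0.0947, and 0.00466 with wild type as 2 sets. Levels were scaled by the trimmed mean of M values (TMM), a normalisation less sensitive than library totals to a few features with a large share, and are given as counts-per-million values (CPM).

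On that scale the wild-type libraries had 1452 ± 391 CPM (SD, n = 9), with a lowest value of 902, a median of 1671 and a highest of 1814. The dpf-3 null libraries A to C had 99.1, 85.8 and 43.7 CPM (76.2 ± 28.9, SD, n = 3), which is 5.25% of the wild-type mean, and DPF-3 S784A had 151, 32.1 and 103 CPM (95.5 ± 60.0, SD, n = 3), which is 6.57%. The mut-2 libraries had 50.7, 0 and 15.8 CPM (22.2 ± 25.9, SD, n = 3) and the mut-7 libraries 31.5, 37.9 and 16.6 CPM (28.7 ± 10.9, SD, n = 3). The order of the means was wild type, S784A, null, mut-7 and mut-2. Wild type stood clear of all mutants. Among the mutants the ranges overlapped widely. S784A overlapped every other mutant, with library B (32.1 CPM) below mut-7 library B (37.9 CPM), mut-2 library A (50.7 CPM) lay above null library C (43.7 CPM), and only the null and mut-7, neighbours in the order, did not overlap, by a few counts. The mut-2 values sit at the limit of detection: 3 counts equal 50.7, 37.7 and 47.3 CPM in its libraries A, B and C, so the 0 of library B allows a level of up to 37.7 CPM. In mut-7, library A (31.5 CPM) lay at that limit, library C (16.6 CPM, limit 24.9) below it and library B (37.9 CPM, limit 18.9) above it. S784A library B (32.1 CPM, limit 48.2) was also below its limit. Such limits, and the exact intervals of summed counts below, cover counting error alone and not the spread between libraries. The intervals of log2 differences include that spread but are approximate. They use an SE worked back from the test statistic of the fit and assume a normal distribution. The sources do not say whether reads were collapsed to molecules.

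**Figure D1:**
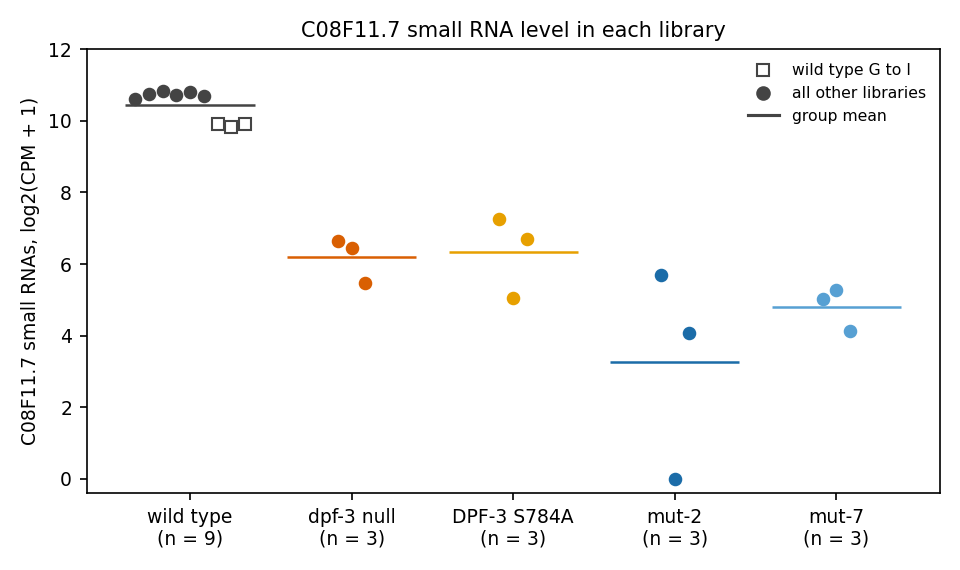
Small RNAs of C08F11.7 in each of the 21 libraries, by genotype, as log2(CPM + 1) with TMM scaling; points are libraries, lines are group means of these log values, and open squares are wild-type libraries G to I. The wild-type libraries lie at 9.82 to 10.83, in 2 sets, and no mutant library exceeds 7.25.

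Within wild type, libraries A to F had 1708 ± 93.0 CPM (SD, n = 6; 1559 to 1814) and G to I 941 ± 34.3 CPM (SD, n = 3; 902 to 967), without overlap. Which of the sets was higher depended on the scaling. Divided by the counts in features, A to F were also higher (889 to 954 CPM against 763 to 820), but relative to all reads, with those outside features added, G to I were higher (350 to 383 CPM against 261 to 311). Every mutant library was below every wild-type library on both of these scales as well, with at most 26.2 CPM of all reads in any of them.

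The dpf-3 genotypes provided the values on which the gene was chosen. The fitted log2 difference from wild type was -4.20 (SE 0.40) in the null and -3.84 (SE 0.42) in S784A. Against wild-type libraries A to F alone these values were -4.53 and -4.18, and against G to I alone -3.72 and -3.27. Without TMM scaling, the CPM of the summed counts was 10.9 times higher in wild type than in the null (exact 95% interval 8.10 to 15.2) and 8.81 times higher than in S784A (6.04 to 13.4). The gene was chosen for low values here, which favours large ratios, and these intervals do not allow for that choice. They are therefore no test of a fall. Some reads remained: 6 to 22 in each null library and 2 to 14 in each S784A library. The 2 reads of S784A library B lie under the 3 counts used as the limit of detection. Whether the remaining reads come from a similar gene was not tested. The null minus S784A log2 difference was -0.36 (SE 0.50, 95% interval -1.34 to 0.63). The choice of the gene required low values in both genotypes, which favours values that are alike, so no test of this difference is given. The interval spans differences in either direction, and the value turned to 0.10 without S784A library A, the highest of that group.

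The mut-2 and mut-7 libraries address how far the small RNAs of the gene rest on Mutator amplification, and neither comparison with wild type was used in choosing it. Wild-type libraries did enter that choice, however, which favours a gene with a high wild-type level. The p-values of these comparisons do not allow for this. C08F11.7 fell in both Mutator mutants. The log2 difference from wild type was -6.13 (SE 0.56) in mut-2, with an edgeR adjusted p of 7.44e-09 (47.6% of the 5038 features tested were called in either direction), and all 3 libraries were below all 9 of wild type. In mut-7 it was -5.60 (SE 0.48), with an edgeR adjusted p of 1.54e-09 (56.5% called) and the same complete separation. A fall was common, with 31.5% of features called lower in mut-2 and 33.2% in mut-7. By size, the fall of C08F11.7 ranked 434 in mut-2 and 842 in mut-7 from the most negative.

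The size of the fall in mut-2 rests on 4 counts. Its log2 difference was -7.58 without mut-2 library A, which held 3 of them, and -5.44 without library B, which held 0. The CPM of the summed counts, without TMM scaling, was 29.1 times higher in wild type than in mut-2 (exact 95% interval 11.3 to 107) and 19.0 times higher than in mut-7 (10.6 to 38.1). Against wild-type libraries A to F alone the log2 differences were -6.43 for mut-2 and -5.93 for mut-7, and against G to I alone -5.71 and -5.28. The fall was called in both mutants against either set. Scaling by library totals gave smaller log2 differences, -4.84 in mut-2 and -4.24 in mut-7. The 2 mutants did not differ detectably from each other: mut-2 minus mut-7 was -0.53 (SE 0.89, 95% interval -2.27 to 1.22; edgeR adjusted p 0.908), where 0.854% of all features were called and 0.457% were called lower. All comparisons with wild type share the same 9 libraries.

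**Figure D2:**
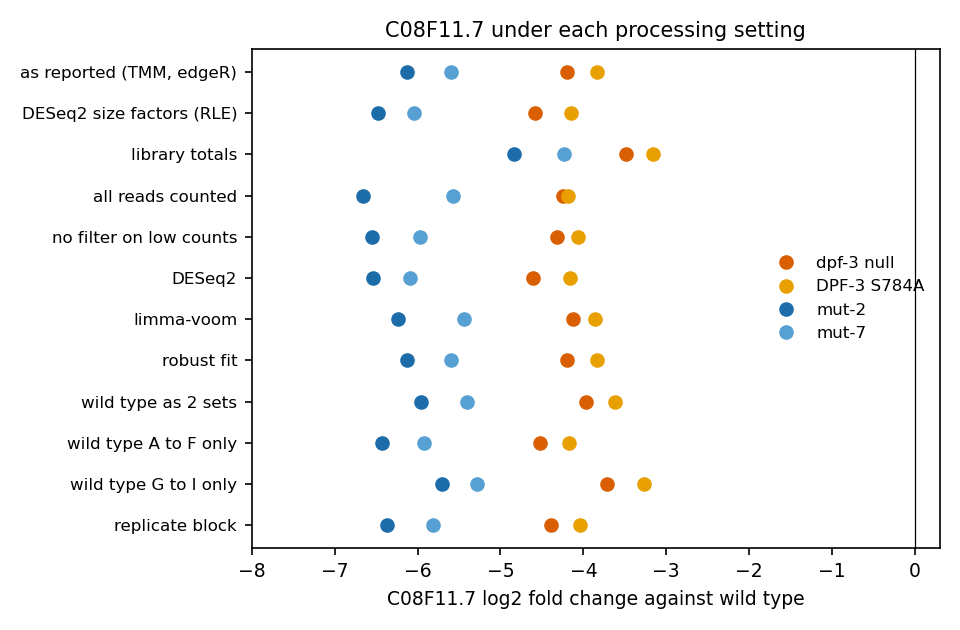
Fitted log2 difference of C08F11.7 from wild type in each mutant as reported and under 11 other settings (x axis, log2 scale). All values lie below 0, from -6.66 in mut-2 with all reads as the scale to -3.16 in DPF-3 S784A with library totals as the scale.

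The other genes of the ERGO-1 list place these values. The list holds 31 names written from general knowledge of the field and not checked against a published table. The count table had 25 of them, and 23 passed the filter on low counts, C08F11.7 included. Per kilobase of exon, the wild-type level of C08F11.7 was 1394 CPM, rank 13 of 25, and that of Y17D7B.4, the highest, was 66520 CPM. C08F11.7 is therefore a target of middling small RNA level on this list.

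In mut-2 most of the list fell, as C08F11.7 did, while in mut-7 the number and size of the falls depended on the wild-type set. Against all 9 wild-type libraries, 17 of the 22 other tested members were called lower and 0 higher in mut-2 by edgeR (31.5% and 16.1% of all features), with a median log2 difference of -3.49 against -0.02 for all features tested. In mut-7, 18 were called lower and 1 higher (33.2% and 23.3% of all features), with a median of -2.17 against 0.11. The member that rose was F14F7.5, with 2.84. Against libraries A to F alone, edgeR called 20 lower and 1 higher in mut-2 (34% and 20.4% of all features) with a median of -4.01, and 20 lower and 1 higher in mut-7 (35.3% and 28.9%) with a median of -2.79. Against G to I alone, where 21 members could be fitted, it called 17 lower and 2 higher in mut-2 (34.4% and 17.3%) with a median of -2.19. In mut-7 it called 13 lower and 1 higher (36.5% and 21.6%), and the median was -0.71. F55C9.5, for example, had 225 CPM in G to I and 226 in mut-7, and C01A2.1 had 258 and 412, whereas C08F11.7 had 941 and 28.7.

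Among the 6 other members with the highest wild-type levels, Y17D7B.4 fell from 29934 CPM to 277 in mut-2 and 419 in mut-7, with log2 differences of -6.76 and -6.16 (edgeR adjusted p 4.94e-07 and 5.91e-07). K02E2.6 had log2 differences of -4.53 and -2.71, W04B5.2, a pseudogene, -5.61 and -4.22, and Y37E11B.2 -3.42 and -1.77. C36A4.11 had -4.41 and -1.92, and bath-20, which encodes a BATH-domain protein, -5.09 and -5.08. Each of these 6 was called lower in both mutants by edgeR. Against G to I alone all 6 were still called lower in mut-7, but by less: the log2 difference was -0.46 for Y37E11B.2, -0.71 for C36A4.11, -1.05 for K02E2.6, -2.78 for W04B5.2, -4.15 for Y17D7B.4 and -4.85 for bath-20.

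In the dpf-3 genotypes the calls for the list also turned on the wild-type set. Against all 9 wild-type libraries, of the 22 other tested members, 3 were called lower and 1 higher in the null (of all features, 36.6% were called, 23.2% lower and 13.5% higher), and 3 lower and 4 higher in S784A (28.9%, 21% and 7.94%). Their median log2 difference was 0.35 in the null and 0.31 in S784A, against 0.18 and 0.04 for all features. Against A to F alone, 6 were called lower and 1 higher in the null (28.8% and 16% of all features) and 9 lower and 4 higher in S784A (27.2% and 7.1%), with medians of -0.09 and -0.18. Against G to I alone, 3 of 21 were called lower and 16 higher in the null (30.2% and 23.3%) and 4 lower and 16 higher in S784A (27.6% and 19.9%), with medians of 1.80 and 1.65. Y17D7B.4, for instance, had 43051 CPM in the null and 31978 in S784A, against 41942 in wild-type libraries A to F and 5918 CPM in G to I. These contrasts chose the gene, and nothing is read from the counts.

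C08F11.7 was not the only listed gene with such values, however. Among the other tested members, C18D4.6, R06C1.4 and bath-20 were the 3 called lower in both dpf-3 genotypes against all wild-type libraries. They were also called lower against either set alone. C18D4.6 had 1745 ± 547 CPM in wild type (SD, n = 9) and 62.2 ± 21.4 and 68.4 ± 26.7 CPM in the null and S784A (SD, n = 3 each), or 3.56% and 3.92% of wild type. R06C1.4 had 1024 ± 379 CPM in wild type and 88.7 and 124 CPM in those genotypes (85.6 to 94.7 and 86.5 to 145), or 8.66% and 12.1%. These shares bracket the 5.25% and 6.57% of C08F11.7. For bath-20 the fall was smaller, from 7248 ± 1888 CPM to 2628 ± 203 and 2646 ± 111 CPM, which left 36.3% and 36.5%. In mut-2 and mut-7, C18D4.6 was left with 1 count in each genotype (3496 counts in wild type) and R06C1.4 with 6 and 27 counts (1992 in wild type).

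**Figure D3:**
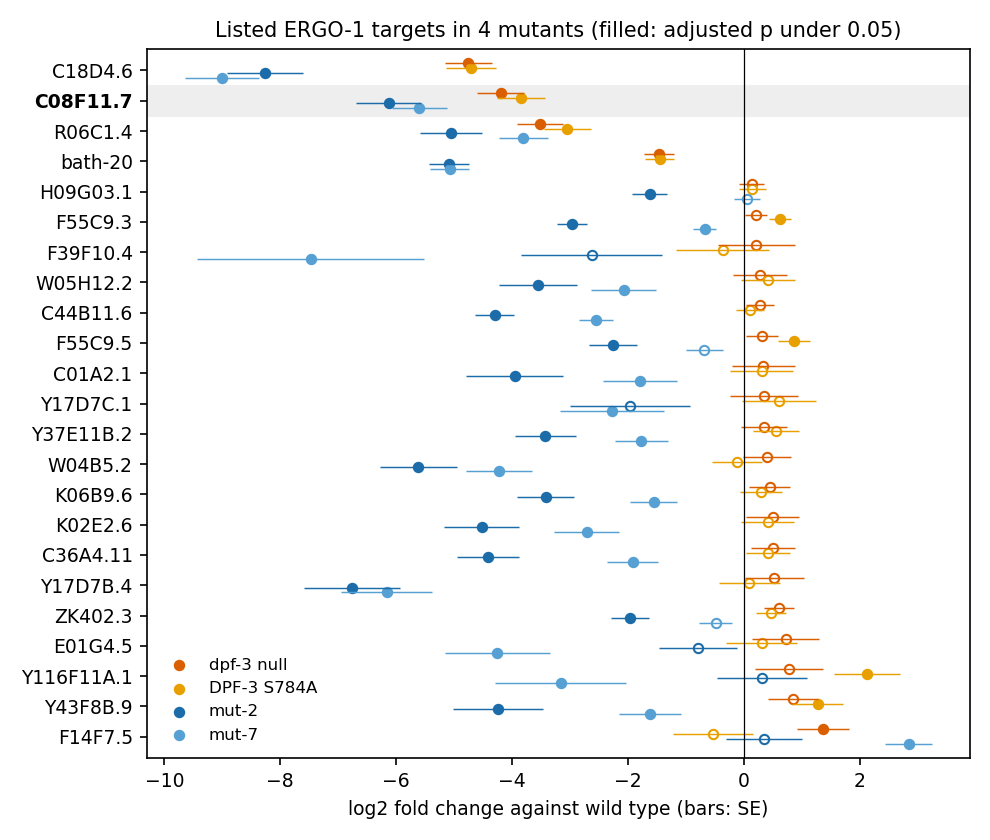
Log2 difference from wild type of the 23 tested ERGO-1 targets in each mutant, against all 9 wild-type libraries (bars, SE; filled points, edgeR adjusted p under 0.05; C08F11.7 shaded). The filled points of C08F11.7 in the dpf-3 genotypes are not to be read as a test, since those contrasts chose the gene. F39F10.4 had 0 counts in mut-7, so its fitted value there has no measured size. In the dpf-3 genotypes C08F11.7, C18D4.6, R06C1.4 and bath-20 lie below the others, and in mut-2 and mut-7 most of the list is below 0.

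The ratio of the 2 wild-type sets differed between these genes too. The level in G to I divided by that in A to F was 0.551 for C08F11.7, while the 22 other tested members had a median of 0.251 (0.0759 to 3.77, with 21 under 1) and all features tested a median of 0.916. C18D4.6 had 0.492, R06C1.4 0.415 and bath-20 0.583. Libraries G to I thus held less small RNA of nearly all listed targets on the TMM scale, by a smaller factor for C08F11.7 than for the median of the list.

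A share within the list does not depend on how libraries are scaled. C08F11.7 made up 1.82% ± 0.772 (SD, n = 9) of the counts of the list in wild type, with a mean of 1.31% ± 0.0359 in A to F (n = 6) and of 2.85% ± 0.0982 over G to I (n = 3). In mut-2 the libraries A to C had 0.949%, 0% and 0.266% and in mut-7 the share was 0.205% ± 0.0853 (SD, n = 3). Every library of both mutants was below every wild-type library, with a two-sided exact permutation p of 0.00909, the smallest that 220 arrangements allow, and the same after adjustment over both comparisons. This p does not allow for the part of wild type in the choice of the gene. In the dpf-3 genotypes, which chose the gene, the share was 0.0618% ± 0.0226 in the null and 0.0883% ± 0.0559 in S784A (SD, n = 3 each). The 3 null libraries (0.0363% to 0.0796%) lay below every mut-7 library (0.117% to 0.288%), a difference that was not tested. The whole list held 16511 to 27633 counts in the null libraries and 1424 to 2086 in those of mut-7, so a lower share is not a lower level. The level of C08F11.7 itself was higher in the null (43.7 to 99.1 CPM) than in mut-7 (16.6 to 37.9 CPM).

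Small RNAs of the genes that make and use these small RNAs were examined next. Of 49 pathway names 47 were in the table and 36 were tested. In mut-2, 8 were called higher and 6 lower by edgeR (16.1% and 31.5% of all features), and in mut-7 10 higher and 7 lower (23.3% and 33.2%), with list medians of 0.23 and 0.25 against -0.02 and 0.11 for all features. The member with the smallest p in both was eri-6, a helicase gene of the ERGO-1 pathway. Its small RNAs fell from 10329 ± 2241 CPM (SD, n = 9) to 261 CPM in mut-2 and 171 CPM in mut-7, log2 differences of -5.32 (edgeR adjusted p 1.28e-10) and -5.88 (1.72e-11). Small RNAs of mut-7 itself rose from 254 ± 32.1 CPM (SD, n = 9) to 668 CPM in mut-2 (edgeR adjusted p 1.03e-07), and those of rde-11, an RNA interference factor, fell by 3.57 in mut-7 (2.91e-08). The gene eri-3, of the complex that makes 26G RNAs, was called lower in both (-1.26 and -1.82, edgeR adjusted p 0.00231 and 1.81e-05). Between mut-2 and mut-7, 226 features were called with wild type as 2 sets and 43 in the main fit. No pathway gene was called in the main fit. The smallest p-values there belonged to henn-1 (0.90, edgeR adjusted p 0.376), the small RNA methyltransferase gene, and rrf-1 (0.52, edgeR adjusted p 0.396), which encodes a polymerase of 22G RNAs. Mutant and wild type differ by a median over all features of -0.75 to 1.17 in mut-2 depending on the scale used, so a rise of this size is relative to the scale.

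In the dpf-3 genotypes, 13 pathway genes were called higher and 2 lower in the null (13.5% and 23.2% of all features), and 8 higher and 1 lower in S784A (7.94% and 21%), with list medians of 0.44 and 0.35 against 0.18 and 0.04 for all features. As with C08F11.7, eri-6 was lower in both, with log2 differences of -2.32 in the null and -2.04 in S784A, at 2071 and 2516 CPM, whereas eri-3 was higher in both, with 1.27 and 1.18. Small RNAs of dpf-3 were lower in the null, at 8.84 CPM against 102 ± 27.0 CPM in wild type (SD, n = 9), and stood at 139 CPM in S784A. The null minus S784A log2 difference of dpf-3 was -3.81, with an edgeR adjusted p of 8.75e-05. Between those genotypes 125 features were called with wild type as 2 sets, and 2 in the main fit (0.0397% of all features). The low number in the main fit therefore does not show that they are alike. In that fit dpf-3 was the only pathway gene called between them. The next smallest p there was that of rde-12, a helicase gene of RNA interference (0.51, edgeR adjusted p 0.970). Small RNA counts do not measure the messenger RNA or the protein of any of these genes.

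Features beside the gene had few small RNAs. Within 10000 bases the table held 12 other features, of which 9 had a count. Among genes of the table, the nearest upstream, fbxa-98 (an F-box gene, 2051 bases away), had 9 counts over wild type, and the nearest downstream, ugt-22 (a UDP-glucuronosyltransferase-family gene, 593 bases away), had 31. Both are far under the 2971 of C08F11.7. An annotated pseudogene 299 bases upstream, WBGene00014672, was not analysed here. Scaled to counts in features, ugt-22 had 9.13 CPM in wild type, 35.3 in the null, 40.5 in S784A, 0 for mut-2 and 20.9 for mut-7, so its values in the dpf-3 genotypes were not below wild type. It had too few counts to be tested. C08F11.10 had 36 counts in wild type, all of them in libraries G, H and I, none in either dpf-3 genotype, 3 in mut-2 and 6 in mut-7, or 10.6, 0, 0, 22.5 and 25.1 CPM. An unnamed interval 854 bases upstream on the same strand (IV, 13635953 to 13636420) had 42 counts in wild type, 1 to 12 per library, and 1 in all 12 mutant libraries. At 12.4 against 0.846 CPM this is a ratio of 14.6 (exact 95% interval 2.48 to 591), but its counts are too low for the test across features. The ratio pools all mutant genotypes, and at the wild-type level their 12 libraries together would hold only 14.6 counts. It therefore shows no fall in any single genotype. Ensembl lists 44 piRNA genes within the same 10000 bases, none of which overlaps C08F11.7 or is in the table.

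**Figure D4:**
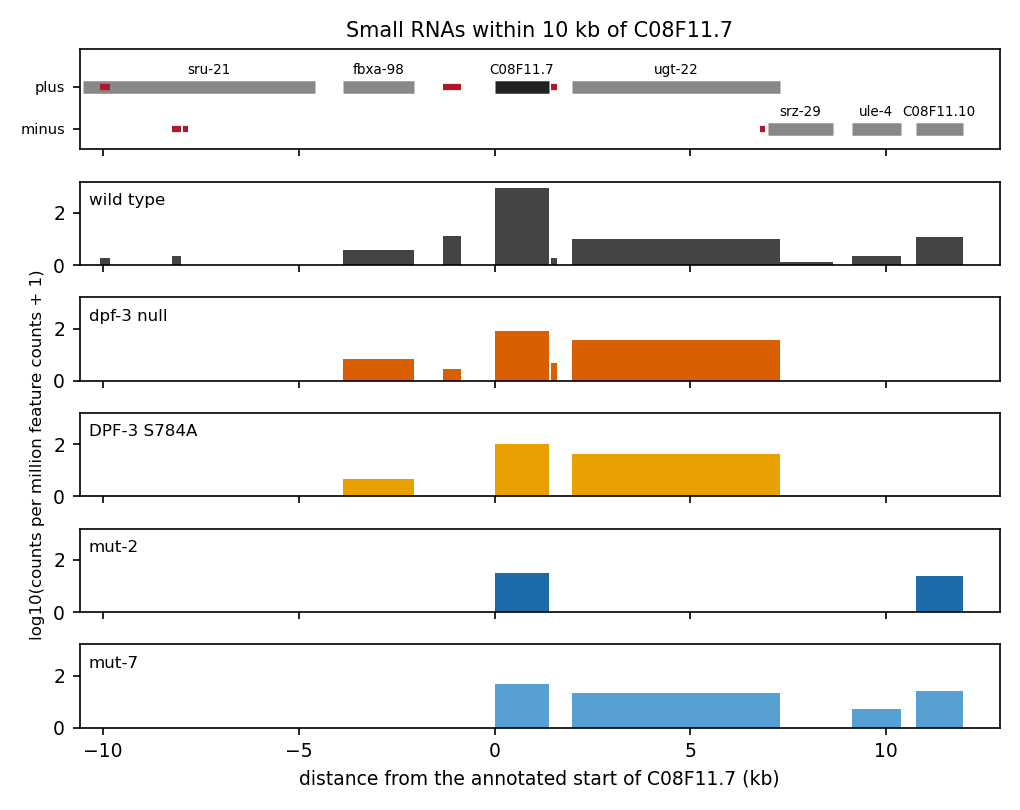
Small RNAs of the features within 10 kb of C08F11.7, by genotype, as log10 of CPM plus 1 without TMM scaling, against distance from the annotated start of the gene. The top panel shows genes (grey, C08F11.7 black) and unnamed intervals (red) by strand, each bar below spans a whole feature and gives its summed level, and C08F11.7 is the tallest bar in every genotype.

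The genes most like C08F11.7 were those with the highest Pearson correlation of log2(CPM + 1) over the 21 libraries. They were scrm-4 (r = 0.98), a scramblase-family gene, F07B7.1 (0.97), ZK1055.7 (0.97), F07B7.2 (0.97), F55B11.6 (0.96), C27D8.3 (0.96), qdpr-1 (0.96), a dihydropteridine reductase gene, and the pseudogene WBGene00012577 (0.96). None of these 8 is in the ERGO-1 list, 2 lie on chromosome IV, and F07B7.1 and F07B7.2 are neighbours on chromosome V. The closest unnamed intervals, with r = 0.95 each, lie on chromosome V at 18120789 to 18121360, 18443955 to 18455084 and 8830820 to 8833227. Of the 5037 other features, 150 had an r over 0.9, with a median over all of -0.05. Among listed ERGO-1 targets the highest values were 0.95 for R06C1.4, 0.93 for C18D4.6 and 0.88 for bath-20. They ranked 9, 27 and 297 among the 5037 features, so R06C1.4 came directly after the 8 genes.

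These correlations describe 21 libraries that share 9 wild-type libraries, the same scaling and the same depth differences, and they reflect mainly the step from wild type to mutant. Over the 9 wild-type libraries alone, r was -0.20 for C27D8.3 and 0.66 for scrm-4, and 0.92 to 0.98 for the rest of the 8 genes. All 8 genes had 0 counts in mut-2 library B, as C08F11.7 did, where 22.1% of the features tested had none. Without that library, which was left out after seeing the data, their r lay between 0.93 and 0.98, scrm-4 still ranked first, and the other 7 ranked 9 to 44 among genes. The first 8 then were scrm-4, asah-1, F15D4.5, F15D4.6, neto-1, T23G11.11, WBGene00022290 and K07A1.3, so beyond scrm-4 the order is not settled by these libraries. For scrm-4 the level was 555 ± 69.8 CPM in wild-type libraries A to F (SD, n = 6) and 453 ± 21.9 CPM over G to I (SD, n = 3), with 4 counts over all mut-7 libraries.

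**Figure D5:**
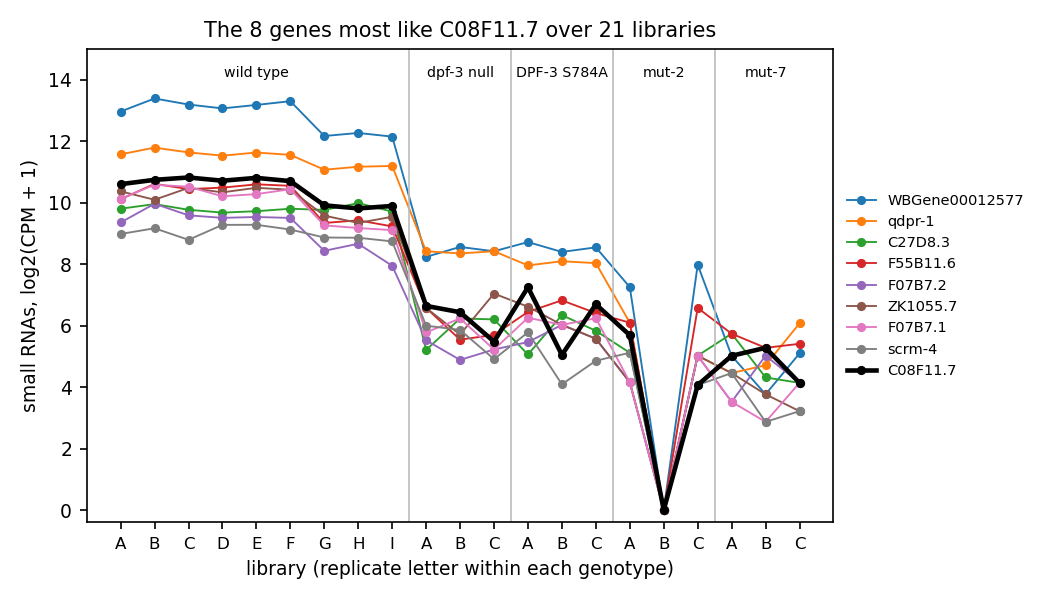
Log2(CPM + 1) of C08F11.7 (black) and of the 8 genes with the highest correlation to it in each of the 21 libraries. All drop from wild type to every mutant, and all stand at 0 in mut-2 library B.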

How the data were processed

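The table of the authors holds whole-number counts of small RNA reads per feature and library, used as deposited. The submitters' processing notes name cutadapt 2.3, Bowtie 1.2.3, SAMtools 1.9, HTSeq 0.11.2 and ce11. The role of each tool, whether strand was used, and how multiply aligned or duplicate reads were treated were not given in these sources. Reads shared with a similar gene could therefore be placed at either, and a search for similar proteins was not run here. All 75393 features were read, no column lacked a sample, and gene structures and names came from Ensembl release 115 and RefSeq.

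All 21 libraries entered 1 edgeR 4.0.16 quasi-likelihood fit in R 4.3.3 with a mean per genotype, TMM scaling and the filterByExpr filter, which retained 5038 features (4543 were genes), or 92.2% of counts. P-values were adjusted by Benjamini-Hochberg over all of them, with calls at an adjusted p under 0.05. DESeq2 1.42.0, limma-voom (limma 3.58.1) and other scalings, filters and sets of libraries were alternatives. The fit was tested on simulated counts. Ratios of summed counts carry exact 95% intervals, and shares were compared by exact permutation in scipy 1.17.1. Correlations used log2(CPM + 1).

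The gene, both gene lists (written from general knowledge) and the tests were chosen with earlier results of these data known. The genes named are C08F11.7, the 8 genes and 3 intervals most correlated with it, features with a count within 10000 bases, the 6 other listed targets with the highest wild-type mean, and the 2 pathway genes with the smallest p in each comparison. C18D4.6, R06C1.4, F14F7.5, F55C9.5, C01A2.1, eri-3 in the Mutator mutants and the null, dpf-3 in wild type and S784A, and the genes most alike without mut-2 library B were named after their values were seen.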

Additional observations from a re-analysis of the deposited data

Results flagged for a closer look

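C36A4.11, one of the 6 most abundant listed targets beside C08F11.7, differed between the Mutator mutants. Its small RNAs fell in both, and the fall was larger in mut-2, with a mut-2 minus mut-7 log2 difference of -2.50 (edgeR adjusted p 0.021). It had 450 CPM in mut-2 and 2540 CPM in mut-7, against 9584 CPM in wild type. The same difference for C08F11.7 was -0.53 and was not called. Among the 22 other tested members 4 were called lower in mut-2 than in mut-7 and 0 higher, where 0.457% and 0.397% of all features were.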

How the results depend on the processing

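C08F11.7 was called lower in mut-2 and mut-7 under all 32 alternatives (adjusted p up to 0.000348 and 2.15e-06), 21 of them leaving out 1 library. Without 1 library its log2 difference was -7.58 to -5.44 in mut-2, -5.90 to -5.32 in mut-7, -4.54 to -3.94 in the null and -4.29 to -3.64 in S784A; mut-2 minus mut-7 was -1.94 to 0.15, turning to 0.15 without mut-2 library B, and null minus S784A -0.65 to 0.10, turning to 0.10 without S784A library A. Library totals gave -3.48 in the null. Counts of features called without 1 library were 2153 to 2599 (mut-2), 2544 to 3096 (mut-7), 12 to 92 (mut-2 against mut-7), 2 (null against S784A), 1294 to 1960 (null) and 1133 to 1514 (S784A). With library totals they were 3813 in mut-2, 4273 in mut-7, 3210 in the null and 2469 in S784A. Between mut-2 and mut-7 the 43 calls became 90 with library totals or all reads as the scale, 131 without the filter, 125 with DESeq2, 8 with limma-voom, 226 with wild type as 2 sets, 210 with A to F and 218 with G to I only, and 191 with the replicate block. Between the null and S784A the 2 calls became 7 (library totals), 15 (no filter), 4 (DESeq2), 125 (2 sets), 110 (A to F), 143 (G to I) and 106 (replicate block). These counts are not out of the same number of features. Features with an adjusted p numbered 5038 in the main fit, 28149 without the filter, 4026 with A to F and 3303 with G to I only. With DESeq2 they numbered 741 between mut-2 and mut-7, and 5038 between the null and S784A. The common dispersion was 0.0947, and 0.00466 with wild type as 2 sets. The replicate block fits a term for each replicate letter. Letters D to I occur only in wild type, so in that setting the wild-type mean rests on libraries A to C. With the replicate block C08F11.7 had -6.37 in mut-2, -5.81 in mut-7, -4.39 in the null and -4.04 in S784A. Its mut-2 minus mut-7 difference was then -0.55 and null minus S784A -0.35. It was still called lower in mut-2 and mut-7, and not called between them. Replicate letters did not pair libraries: same-letter correlations were -0.046 to 0.06, and in 11 of 30 same-letter pairs the correlation was the best of that library. The share of the list, mutant minus wild type in percentage points, was -2.44 for mut-2 and -2.64 for mut-7 against G to I alone, where an exact permutation p cannot go below 0.1. Without 1 library it was -1.69 to -1.21 and -1.69 to -1.48. Across scalings the median of all features lay at -0.75 to 1.17 in mut-2, -0.31 to 1.36 in mut-7, -0.19 to 0.76 in the null and -0.47 to 0.61 in S784A; C08F11.7 minus that median stayed within -6.12 to -5.90, -5.73 to -5.51, -4.40 to -4.18 and -3.90 to -3.71. Scaling also moved the split of calls, from 809 higher and 1587 lower in mut-2 to 2519 and 1294 with library totals and 77 and 1791 with all reads, and from 1173 and 1674 in mut-7 to 2926 and 1347 and to 404 and 1636. Values in mut-2 rest on 4 counts and are limited by depth.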
